A study of Mus musculus with 56 samples.

Results

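Monocytes and macrophages that enter a wound secrete growth factors that act on the cells rebuilding it. The 9 genes described here encode such factors: Igf1, Pdgfa, Pdgfb, Hbegf, Areg, Tgfa, Hgf, Gdf3 and Gdf15. They were taken by gene symbol, and each has a row in both deposited tables, among 52636 genes in the heart table and 57010 in the table of bone, muscle and skin. Of the 9, 8 passed the filter on low counts in every fit. Tgfa passed in none.

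The 56 libraries are bulk, oligo-dT-primed RNA-seq of monocytes and macrophages sorted from 1 injured tissue per mouse. The injuries were myocardial infarction, a cranial bone defect, a volumetric muscle loss defect and a full-thickness skin punch. Mice of both arms were 10 weeks old and were injected intraperitoneally with diphtheria toxin at 20 ng/g before and after injury. The control arm was wild-type C57BL/6J with toxin (WT+DT). The depleted arm was Foxp3(DTR/GFP) with toxin (FDG+DT), in which Foxp3-expressing regulatory T cells (Tregs) make the toxin receptor and are killed. Genotype and Treg loss therefore go together in these groups and cannot be told apart. Each arm had 3 libraries at day 4 and 3 at day 7 in heart and in muscle, 4 at each of those days in skin, and 5 at day 7 and 3 at day 10 in bone. The sample labels give days 7 and 10 for bone where the series text gives days 4 and 7, and the labels were followed. They do not say which libraries came from separate animals, so the p-values measure the spread between libraries, which may be partly technical. In muscle at day 7 and bone at day 10, column names hold a second number after the arm. Other bone, muscle and skin columns do not. The meaning of that number is not stated, and whether it marks pooled animals was not tested. In those tissues it goes together with the day, and the parts cannot be told apart.

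Heparin-binding EGF (Hbegf), amphiregulin (Areg) and TGF-alpha (Tgfa) are membrane-bound EGF receptor ligands that sheddases such as ADAM17 release. Insulin-like growth factor 1 (Igf1), platelet-derived growth factor chains A and B (Pdgfa, Pdgfb) and hepatocyte growth factor (Hgf) act on stromal, muscle and epithelial cells of wounds. Gdf15 is a stress-induced member of the TGF-beta superfamily that signals through GFRAL, and Gdf3, of the same superfamily, is a target of PPAR gamma in macrophages of regenerating muscle. Because the libraries are bulk, fewer cells that make a factor and less of its RNA per cell cannot be told apart.

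Promoter sequence is given for Areg and for Gdf15, which had the largest fall. The Areg estimate was lower with depletion in every tissue and day, as were those of Pdgfa and Pdgfb. Both windows are the 250 bases before the RefSeq start (GRCm38.p6), read 5′ to 3′ on the gene's own strand. The Areg window is chr5:91139349-91139598 on the plus strand and the Gdf15 window is chr8:70632457-70632706 on the minus strand.
Areg: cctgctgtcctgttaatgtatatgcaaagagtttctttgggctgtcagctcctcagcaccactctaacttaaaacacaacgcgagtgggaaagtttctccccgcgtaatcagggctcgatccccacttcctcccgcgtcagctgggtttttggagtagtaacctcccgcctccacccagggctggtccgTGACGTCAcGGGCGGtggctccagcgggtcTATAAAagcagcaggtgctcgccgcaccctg
Gdf15: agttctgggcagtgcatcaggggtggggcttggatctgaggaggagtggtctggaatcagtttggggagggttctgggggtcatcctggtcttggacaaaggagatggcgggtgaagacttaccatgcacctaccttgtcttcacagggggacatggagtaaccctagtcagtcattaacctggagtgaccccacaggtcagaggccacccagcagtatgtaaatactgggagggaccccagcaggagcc
Capitals mark matches, on either strand, to the cAMP response element TGACGTCA, the GC box GGGCGG and the TATA box TATAAA. In the Areg window they begin 61, 52 and 31 bases before the start and do not overlap each other. Of 32851 promoter windows of this length, 1.55% held TGACGTCA, 32.7% held GGGCGG, 12.4% held TATAAA and 6.75% held the AP-1 site TGANTCA. The Gdf15 window held none of the 4 motifs, which says only that these letters are not in it. RefSeq windows were matched for 6 of the 9 members. Igf1 held 1 TGANTCA, the windows of Pdgfa and Tgfa held GGGCGG, and those of Hgf held none.

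Library totals were 2642452 to 9788811 counts (heart), 2318268 to 5835113 (bone), 3439692 to 6397434 (muscle) and 3013776 to 5392932 (skin). Macrophage and monocyte markers were abundant in every library (summed level of the 10 genes at least 9074 CPM, counts scaled to a common library size). Foxp3 was at 0 in all 12 heart libraries and at most 4.99 CPM elsewhere, too few counts in these sorted cells to check the depletion. In skin at day 7 it totalled 28 counts in control and 3 in depleted libraries. Summed regulatory T cell markers, Foxp3 among them, stood there at 11.62 to 17.85 CPM in control against 2.88 to 5.99. The arms overlapped for that sum in the other comparisons. Markers of other cells differed between the arms in several groups, some higher and some lower with depletion. Mast cell and basophil markers summed to 730 to 4954 CPM in depleted bone at day 7 against 79.6 to 371 in control. At day 10 in bone they summed to 1951 to 3788 CPM against 232 to 624. In skin at day 4 the same markers summed to 169 to 748 CPM against 11.7 to 35.7, and at day 7 to 188 to 606 against 35.9 to 85.6. Neutrophil markers summed to 1077 to 2844 CPM in depleted muscle at day 7 against 149 to 182. In bone they summed to 8246 to 27090 CPM in depleted libraries at day 7 against 5160 to 12430 in control, which overlap. At day 10 in bone the sums were 16710 to 30910 against 4503 to 8150. The macrophage and monocyte sum of those depleted day 10 libraries was lower, at 9074 to 11480 CPM against 12800 to 14190. It was also lower without overlap in depleted muscle at day 7 (10450 to 10900 CPM against 12950 to 16500). The same held in depleted heart at day 7 (21570 to 26950 CPM against 28090 to 34320). In bone at day 7 it was 10250 to 14660 CPM against 12820 to 23890, which overlap, and the arms overlapped in the other comparisons. Dendritic cell markers summed to 11.2 to 22.2 CPM in depleted bone at day 7 against 42.3 to 72.2 in control, to 11.9 to 24.8 against 44.3 to 49.6 in heart at day 4 and to 47.4 to 62.8 against 107 to 143 in muscle at day 7. Osteoclast markers summed to 201 to 575 CPM in depleted bone at day 7 against 733 to 1930. The ribosomal RNA gene Rn18s-rs5 also ran higher in depleted bone (47490 to 102700 CPM against 13230 to 83910 at day 7, and 63790 to 99590 against 15990 to 23920 at day 10). In depleted muscle at day 7 it lay at 16260 to 46610 CPM against 5896 to 9909. The part of the cell markers in the results below was not tested. For Rn18s-rs5, values with it as a covariate are given in places. Its levels did not overlap between the arms in bone at day 10 or in muscle at day 7. There covariate and arm can hardly be told apart.

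**Figure D1:**
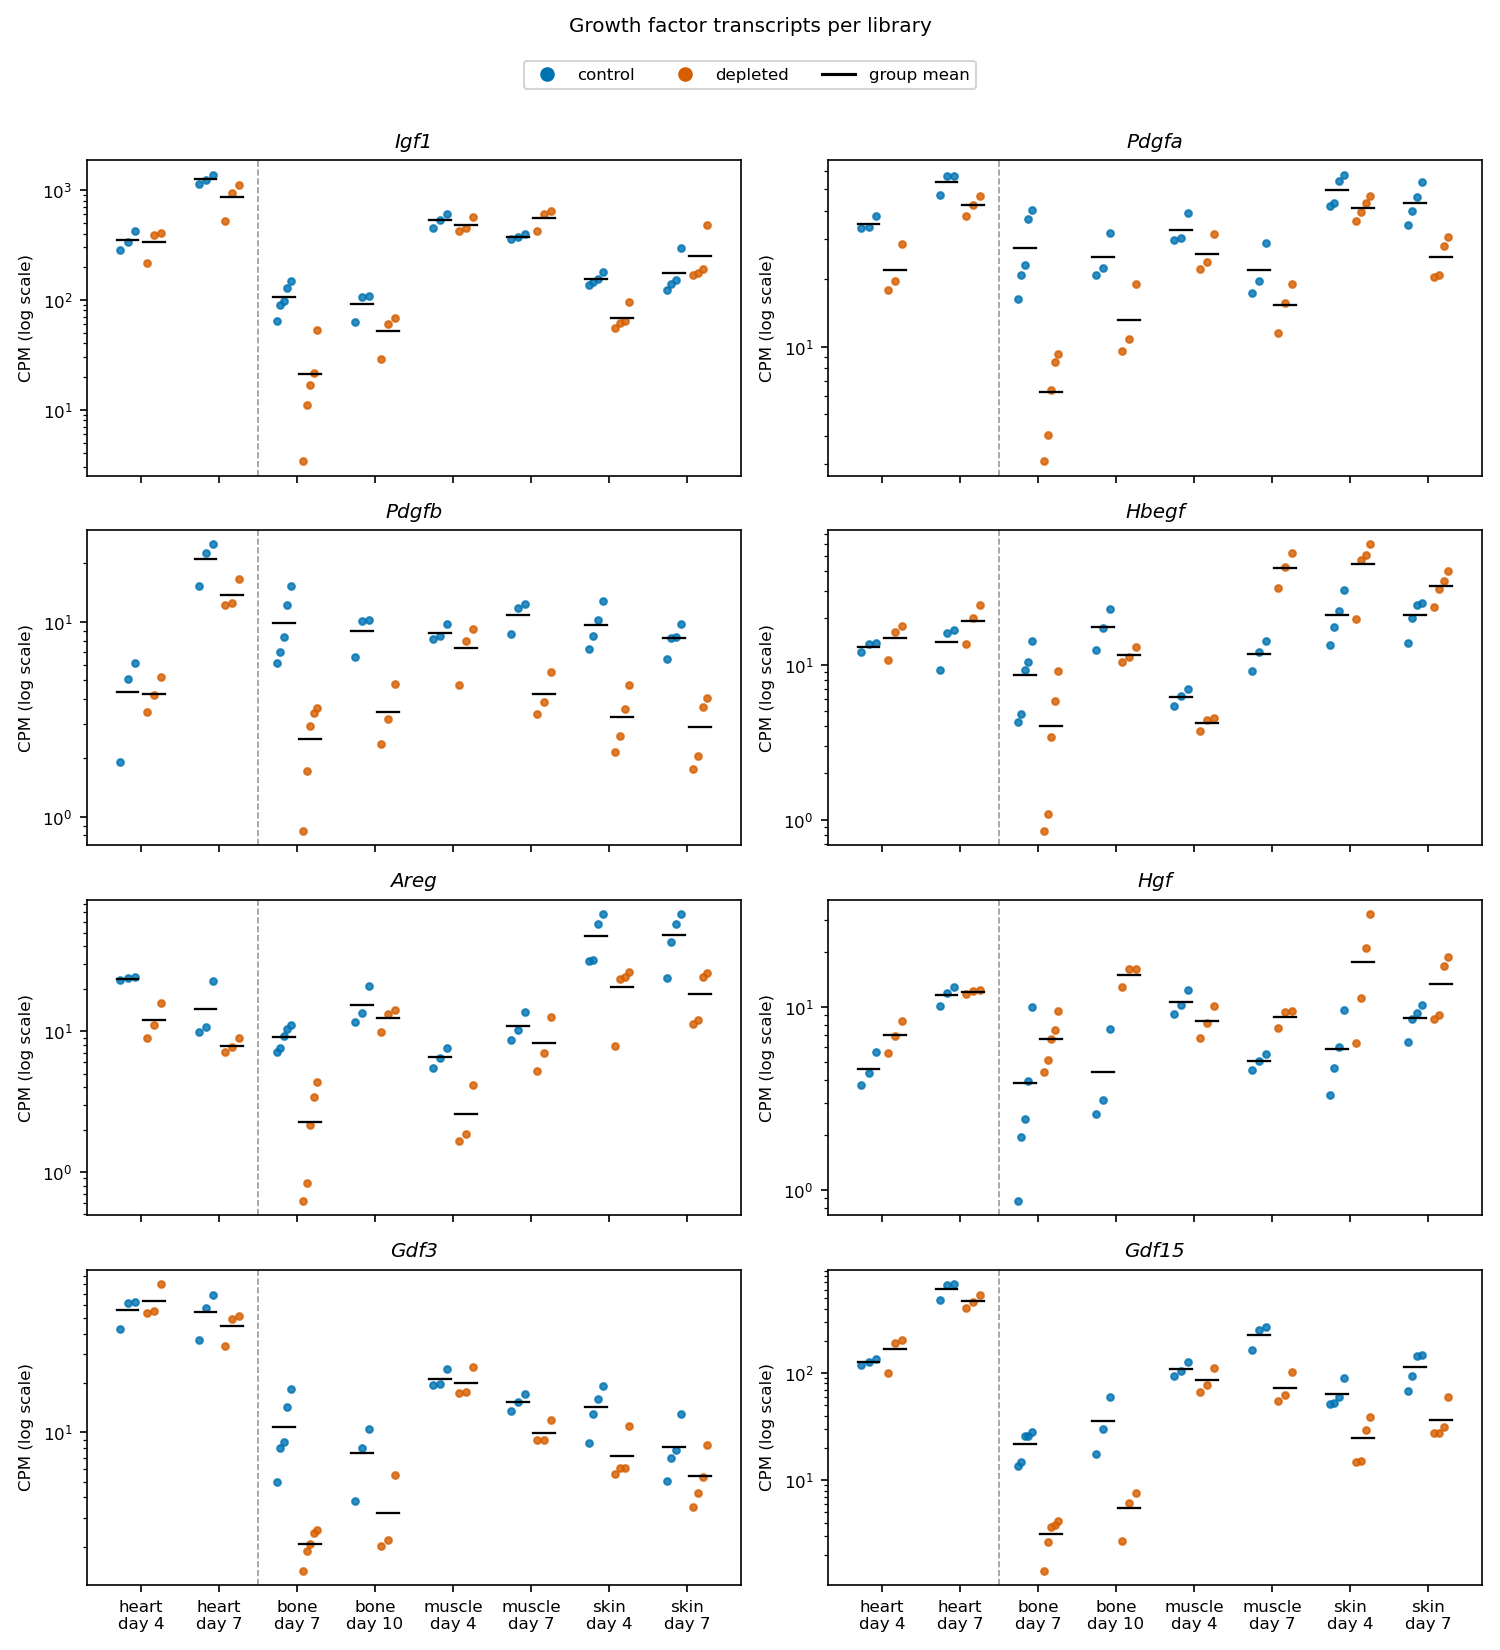
Level of 8 growth factor genes in each library, in CPM on a log axis that differs between panels; points are libraries, black bars are group means, blue is control and orange is depleted. Heart, left of the dashed line, comes from a separate table. Depleted bone at day 7 had the lowest mean in 7 of the panels, the exception being Hgf.

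Gdf15 and Pdgfb fell most often in the depleted arm, Areg, Pdgfa, Gdf3 and Igf1 fell less often, and Hbegf and Hgf rose. Of 64 estimates (8 genes in 8 comparisons that share no library), 48 were below 0. In edgeR's quasi-likelihood test, with p adjusted by Benjamini-Hochberg over all genes tested, 17 fell, 5 rose and 42 did not pass at an adjusted p of 0.05. Gdf15 and Pdgfb each fell in 5 of 8 comparisons, Pdgfa in 3, Areg in 2, and Gdf3 and Igf1 in 1. Hbegf and Hgf each rose in 2 comparisons and Igf1 in 1. The estimates of Areg, Pdgfa and Pdgfb were below 0 in 8 of 8 comparisons, and those of Hgf above 0 in 7 of 8.

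By comparison, the members were spread unevenly. In bone, 6 of the 8 tested members fell at day 7, against 23.6% of all genes tested that passed in either direction, and 2 fell and 1 rose at day 10, against 17.2%. Skin had 2 that rose and 2 that fell at day 4, against 3.57%, and 3 fell at day 7, against 6.21%. In muscle, 2 rose and 2 fell at day 7, against 8.59%, and none of the 8 passed at day 4, against 0.155%. In heart, 2 fell at day 4, against 11.1%, and none of the 8 passed at day 7, against 3.14%. At unadjusted p below 0.05 the comparisons with no call held Pdgfa, Pdgfb and Areg in heart at day 7 and Areg alone in muscle at day 4. DESeq2 called 0 members in either. Without the low-count filter Areg passed in heart at day 7 (adjusted p = 0.00555). The median change of the 8 members was -2.06 (log2) in bone at day 7, -1.09 and -0.67 in skin at days 4 and 7, and between -0.85 and 0.09 elsewhere. Over all genes tested the medians lay between -0.02 and 0.00.

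**Figure D2:**
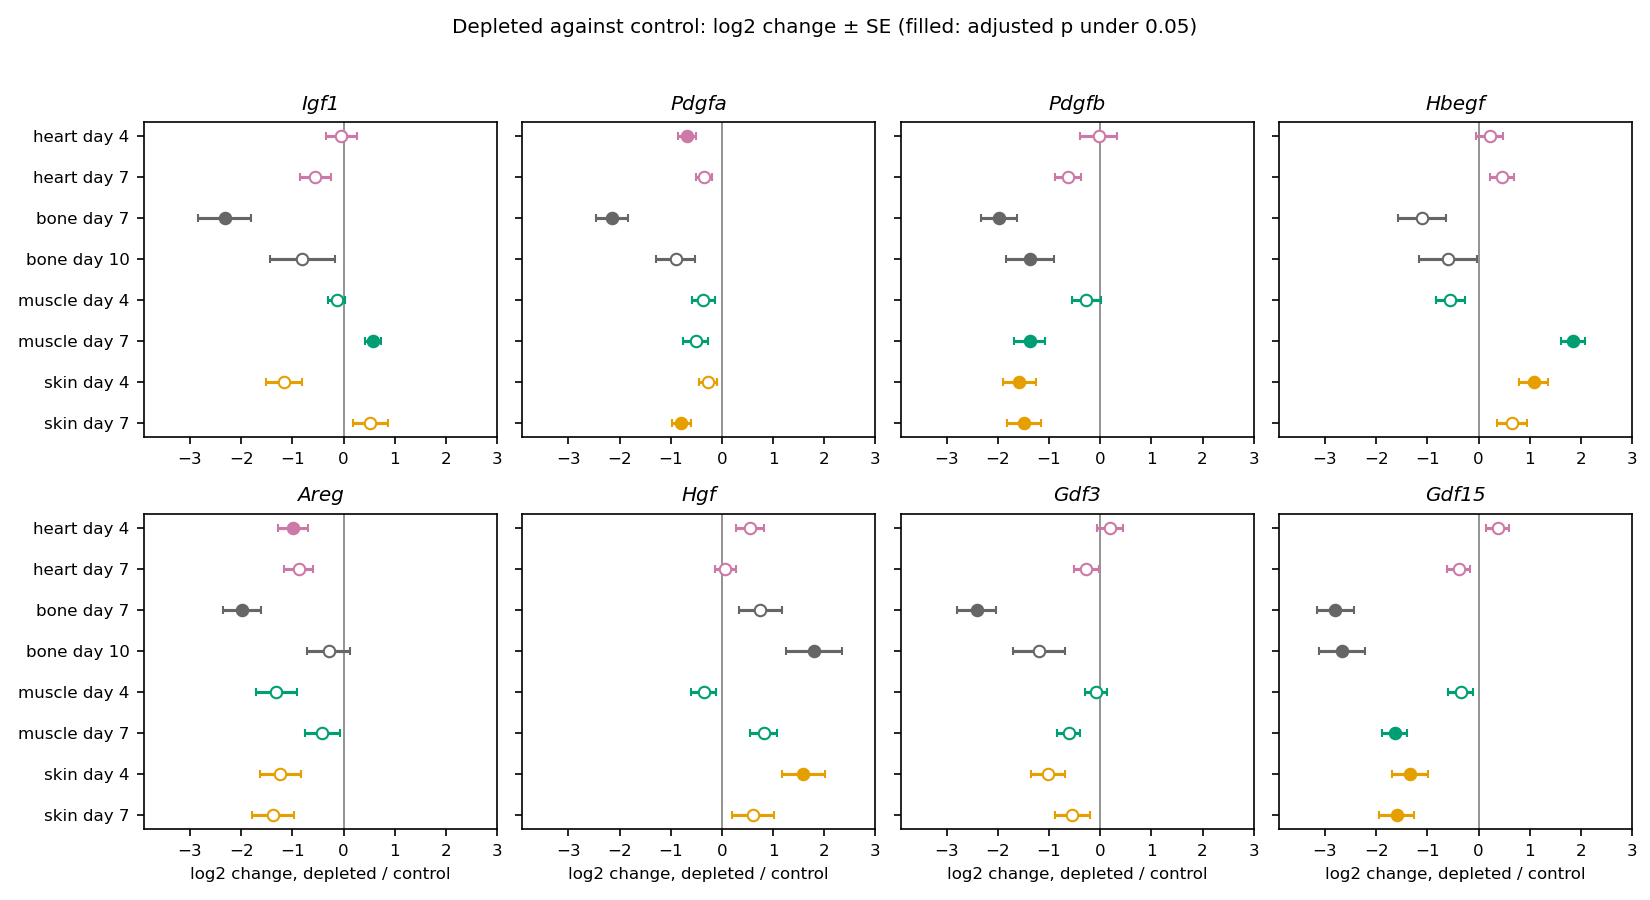
Log2 change of depleted against control for 8 genes in the 8 tissue and day comparisons, with bars of 1 standard error; filled points passed an adjusted p of 0.05. Points for Areg, Pdgfa and Pdgfb all lie left of 0, and Hbegf lies right of 0 in muscle at day 7 and in skin.

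Among the EGF receptor ligands, Hbegf (chr18:36504927-36515805, minus strand; all gene positions are GRCm38, GENCODE M21) rose in muscle and skin, and Areg fell in bone and heart. Hbegf in muscle at day 7 stood at 9.06, 12.1 and 14.3 CPM in control libraries and at 31.2, 52.5 and 42.9 in depleted ones. Every depleted library was above every control library, and the rise was 3.58-fold (log2 change 1.84 ± 0.23 SE, adjusted p = 6.58e-05). The toxin receptor is itself the human HB-EGF precursor, made from the Foxp3 locus, and Foxp3 was at 0 to 0.176 CPM in the same depleted libraries. Whether any transgene read was counted as Hbegf was not tested. With Rn18s-rs5 as a covariate the change was 1.47 (adjusted p = 0.0226). At day 4 in muscle Hbegf was at 5.38, 6.98 and 6.29 CPM in control and 4.39, 3.75 and 4.56 in depleted libraries, which did not overlap but did not pass (log2 change -0.55, adjusted p = 0.639). The depletion effect on Hbegf in muscle differed between days by 2.39 ± 0.37 on the log2 scale (adjusted p = 0.00194). With the covariate that difference was 1.98 and its adjusted p was 0.055.

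Hbegf was also higher in depleted skin at day 4. Control libraries held 30.2, 22.1, 17.5 and 13.5 CPM and depleted libraries 19.8, 59.8, 47.5 and 51.2. Depleted library 1 lay within the control range, and the rise was 2.11-fold (log2 change 1.08 ± 0.29 SE, adjusted p = 0.042). The call was lost when any of 6 of the 8 libraries was left out (depleted 2, 3 or 4, control 2, 3 or 4), with adjusted p up to 0.131, and in a fit of those 8 libraries alone (0.0975). At day 7 in skin the libraries overlapped and the change of 0.65 did not pass (adjusted p = 0.233). In heart Hbegf ranged from 9.24 to 24.2 CPM over all 12 libraries, with changes of 0.22 and 0.46 at days 4 and 7 (adjusted p = 0.658 and 0.307). In bone the estimates went the other way, -1.10 at day 7 and -0.59 at day 10 (adjusted p = 0.101 and 0.51). Leaving out depleted library 3 at day 7 took the first to -1.63 (adjusted p = 0.0126).

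Areg (chr5:91139599-91148432, plus strand), a ligand also known from type 2 immune responses and Tregs, fell in bone at day 7 and heart at day 4. Bone control libraries of day 7 held 7.15, 7.56, 11.0, 9.31 and 10.4 CPM and depleted libraries 4.37, 2.14, 3.42, 0.624 and 0.842. No depleted library reached the lowest control, and the fall was 3.93-fold (log2 change -1.98 ± 0.37 SE, adjusted p = 0.000533). Heart control libraries W1, W3 and W4 held 23.8, 23.0 and 24.1 CPM at day 4 and depleted libraries F1, F2 and F3 held 15.8, 11.1 and 8.88. These also did not overlap (log2 change -0.99 ± 0.29 SE, adjusted p = 0.0346), but leaving out any library other than F1 raised the adjusted p to between 0.0747 and 0.159. The dendritic cell markers given above were also lower in these depleted heart libraries, and their part was not tested.

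The other 6 Areg estimates were below 0 and did not pass. The groups did not overlap in heart at day 7 (9.83 to 22.5 CPM against 7.07 to 8.96, log2 change -0.87, adjusted p = 0.0973) or in skin at day 4 (31.4 to 67.7 against 7.87 to 26.5, log2 change -1.23, adjusted p = 0.122). They did not overlap in muscle at day 4 either (5.51 to 7.66 against 1.67 to 4.16, log2 change -1.31, adjusted p = 0.299). At day 7 in skin they overlapped by 1 control library, library 4 at 23.7 CPM (log2 change -1.38, adjusted p = 0.0596). Without that library the change was -1.61 and the adjusted p 0.0193. Bone at day 10 and muscle at day 7 overlapped (log2 change -0.29 and -0.41, adjusted p = 0.682 and 0.569). DESeq2 called Areg lower in skin at both days (adjusted p = 0.038 and 0.00788). In heart at day 7 Areg passed without the low-count filter (log2 change -0.89, adjusted p = 0.00555).

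Tgfa (chr6:86195223-86275719, plus strand) was barely counted. It had 0 counts in all 12 heart libraries, a total of 4 in bone, 3 in muscle and 12 in skin, and never more than 3 in a library. No comparison of it was made, and at this depth a difference was not detectable.

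The list of other EGF family genes held 15 ligands, receptors and sheddases. Of these, 5 to 7 were tested in each tissue, and at most 1 rose and 1 fell in any comparison. Of all genes tested, 23.6% passed in either direction in bone at day 7 and 17.2% at day 10. That share was 3.14% in heart at day 7, 8.59% in muscle at day 7 and 3.57% in skin at day 4. The gene that rose was Nrg1 (neuregulin 1, an ERBB receptor ligand) in bone at day 7 (log2 change 1.56, adjusted p = 0.00115) and also in bone at day 10, heart at day 7, muscle at day 7 and skin at day 4 (1.40, 1.38, 1.71 and 1.21, adjusted p = 0.021, 0.0305, 0.0282 and 0.0297). Adam17, the sheddase of Hbegf, Areg and Tgfa, fell in bone at day 7 (log2 change -0.46, adjusted p = 0.0224). Rhbdf2, a partner of ADAM17, and Adam10, another sheddase, had adjusted p of 0.111 and 0.135 at their smallest.

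Igf1 (chr10:87858265-87937042, plus strand), a trophic factor for muscle and connective tissue, fell in bone and rose in muscle. Control libraries of bone at day 7 held 129, 63.5, 89.7, 150 and 97.4 CPM and depleted libraries 21.7, 16.8, 52.6, 10.9 and 3.37. All 5 depleted libraries were below all 5 controls, by 5.01-fold (log2 change -2.32 ± 0.52 SE, adjusted p = 0.00529). At day 10 the groups overlapped (62.3 to 108 CPM against 29.0 to 68.3, log2 change -0.80, adjusted p = 0.427). Muscle libraries of day 7 held 371, 358 and 399 CPM in control and 607, 427 and 652 in depleted. These did not overlap, and Igf1 rose 1.49-fold (log2 change 0.58 ± 0.16 SE, adjusted p = 0.0303). The muscle call was lost without any single library except depleted library 2 (adjusted p 0.0628 to 0.144). The depletion effect at day 7 was lower in bone than in muscle and in skin, with differences of -2.90 ± 0.61 and -2.82 ± 0.56 on the log2 scale (adjusted p = 0.00178 and 0.000948).

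Igf1 in skin rose between days in the depleted arm. At day 4 control libraries held 155, 145, 138 and 178 CPM and depleted libraries 60.9, 55.1, 95.8 and 64.2, which did not overlap but did not pass (log2 change -1.16 ± 0.35 SE, adjusted p = 0.0867). DESeq2 called this fall (adjusted p = 0.041), and so did the fit of those 8 libraries alone (0.00046). At day 7 the depleted libraries held 167, 190, 175 and 476 CPM and the controls 151, 122, 140 and 296. From day 4 to day 7 the depleted arm rose 3.72-fold (log2 change 1.89 ± 0.35 SE, adjusted p = 0.00864), while the control arm changed by 0.21 (adjusted p = 0.857). The difference between those arms was 1.69 ± 0.48 and did not pass (adjusted p = 0.131). Library 4 was the highest of both skin groups at day 7, and that difference was 2.04 without the control one (adjusted p = 0.0286) and 1.18 without the depleted one (adjusted p = 0.124).

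Of 11 tested genes of the list (receptors, substrates and binding proteins), 4 fell and 1 rose in bone at day 7, with a list median of -0.88 (log2), against 23.6% of all genes tested that passed. Those that fell included Igf2r, the clearance receptor of IGF2 (log2 change -1.37, adjusted p = 7e-04), Igfbp6, a binding protein (-1.33, adjusted p = 0.0042), and Irs2, a receptor substrate (-0.89, adjusted p = 0.00737). Igfbp4, a binding protein that sequesters IGFs, fell in heart at day 4 (-1.42, adjusted p = 0.00159), muscle at day 7 (-1.43, adjusted p = 0.000662), and skin at days 4 and 7 (-1.34 and -0.71, adjusted p = 0.000285 and 0.0332). It also fell in bone at day 10 (-0.81, adjusted p = 0.0475).

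Pdgfb (chr15:79995874-80014977, minus strand) fell in bone, muscle and skin, and Pdgfa (chr5:138976014-138997370, minus strand) in bone, heart and skin. They encode the chains of PDGF, a mitogen of fibroblasts and pericytes. Pdgfb in skin at day 4 stood at 10.2, 8.46, 7.21 and 12.7 CPM in control and 3.55, 4.76, 2.59 and 2.14 in depleted libraries. At day 7 it stood at 6.44, 9.73, 8.29 and 8.39 CPM in control and 2.04, 3.66, 1.76 and 4.08 in depleted libraries. The groups did not overlap on either day, and the falls were 2.98-fold and 2.82-fold (log2 change -1.58 ± 0.33 and -1.49 ± 0.33 SE, adjusted p = 0.00686 and 0.0065). The effects on the 2 days differed by 0.08 ± 0.48 (adjusted p = 0.972).

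Muscle Pdgfb at day 7 was at 11.7, 12.3 and 8.62 CPM in control and 3.87, 5.54 and 3.35 in depleted libraries, with no overlap. The fall was 2.60-fold (log2 change -1.38 ± 0.31 SE, adjusted p = 0.00725). It was -1.55 with Rn18s-rs5 as a covariate, where it did not pass (adjusted p = 0.0838). Bone libraries of day 7 were at 12.2, 15.3, 6.16, 8.31 and 6.96 CPM in control and 2.92, 3.39, 3.62, 1.72 and 0.842 in depleted libraries (3.93-fold lower, log2 change -1.97 ± 0.35 SE, adjusted p = 0.000296). With the covariate that change was -1.51 (adjusted p = 0.058). At day 10 in bone it was at 10.1, 10.2 and 6.61 CPM against 4.77, 2.37 and 3.16 (log2 change -1.37 ± 0.47 SE, adjusted p = 0.047). That call was lost with any of the 6 libraries left out (adjusted p 0.0561 to 0.133) and with the covariate (0.643). In heart the estimates were -0.02 and -0.62 (adjusted p = 0.978 and 0.189). The fall of Pdgfb in bone differed from those in muscle and skin at day 7 by -0.59 ± 0.47 and -0.46 ± 0.46, which did not pass (adjusted p = 0.522 and 0.604).

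Pdgfa in bone at day 7 stood at 36.9, 40.4, 20.7, 16.3 and 23.1 CPM in control and 8.54, 6.42, 9.26, 4.06 and 3.09 in depleted libraries. All depleted libraries were below all controls, by 4.42-fold (log2 change -2.15 ± 0.31 SE, adjusted p = 3.81e-05), and the change was -1.83 with the covariate (adjusted p = 0.0106). This effect was lower than that in muscle (bone minus muscle -1.63 ± 0.39, adjusted p = 0.00486) and than that in skin (bone minus skin -1.33 ± 0.35, adjusted p = 0.0103). Skin Pdgfa at day 7 was at 34.6, 40.0, 46.1 and 53.8 CPM in control and 20.7, 27.9, 20.4 and 30.7 in depleted libraries, again without overlap (1.73-fold lower, log2 change -0.79 ± 0.18 SE, adjusted p = 0.00739). In heart at day 4 it was at 33.8, 37.9 and 33.9 CPM against 28.5, 19.5 and 17.8 (log2 change -0.67 ± 0.18 SE, adjusted p = 0.0165). Leaving out depleted F2 or F3 or control W3 ended that call (adjusted p = 0.0517, 0.106 and 0.0635). Bone at day 10 (20.8, 22.3 and 31.9 CPM against 9.55, 10.8 and 19.0) and heart at day 7 (47.3, 57.1 and 57.2 against 42.6, 38.2 and 46.5) also did not overlap but did not pass (log2 change -0.91 and -0.35, adjusted p = 0.116 and 0.234). An annotated antisense gene, 6330403L08Rik, overlaps exons of Pdgfa, and the strand setting of the counting is not given in the sources used here, so its counts are uncertain.

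In bone at day 7, 23.6% of all genes tested passed in either direction. Of the 6 listed genes of the PDGF axis, 5 were tested there and 2 fell with none rising. They were Pdgfc, another ligand (log2 change -1.77, adjusted p = 0.0106), and Furin, a protease that processes growth factor precursors (-0.67, adjusted p = 0.00655). The co-receptor gene Nrp1 fell in heart at day 7 (-0.65, adjusted p = 0.00362). Fibroblast markers, among them the PDGF receptor gene Pdgfra, summed to 125 to 1406 CPM in depleted bone at day 7 against 962 to 3484 in control. Of 7 tested, 2 fell, a share near the 23.6% of all genes.

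Hgf (chr5:16553495-16620152, plus strand), the ligand of the MET receptor on epithelial and muscle progenitor cells, rose in bone at day 10 and skin at day 4. Bone Hgf at day 10 stood at 2.60, 7.55 and 3.11 CPM in control and 16.0, 12.8 and 16.1 in depleted libraries, with no overlap (3.48-fold higher, log2 change 1.80 ± 0.55 SE, adjusted p = 0.0278). Skin libraries of day 4 were at 9.64, 6.04, 3.29 and 4.61 CPM in control and 6.34, 11.2, 21.0 and 32.1 in depleted libraries. Depleted library 1 lay within the control range (3.02-fold higher, log2 change 1.59 ± 0.42 SE, adjusted p = 0.0397). Both calls were fragile. The bone call was lost without depleted library 1 or 3 or control library 1 or 3 (adjusted p 0.0779 to 0.107) and with Rn18s-rs5 as a covariate (0.333). The skin call was lost without depleted library 3 or 4 or control library 2, 3 or 4 (adjusted p 0.0841 to 0.187) and in a fit of those 8 libraries alone (0.106).

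Hgf in muscle at day 7 was at 4.53, 5.53 and 5.06 CPM in control and 9.51, 7.64 and 9.42 in depleted libraries, which did not overlap but did not pass (log2 change 0.82 ± 0.27 SE, adjusted p = 0.0689). In bone at day 7 control library 4 stood at 9.97 CPM against 0.87 to 3.92 in the other 4, and depleted libraries at 4.43 to 9.54. The change of 0.75 there did not pass (adjusted p = 0.213) and was 1.41 without that library (adjusted p = 0.0103). Beside these calls, 6 of 7 tested mast cell and basophil markers rose in bone at day 10, with a list median of 2.91 (log2), against 17.2% of all genes. In skin at day 4, 5 of 7 rose, with a list median of 4.01, against 3.57%. The summed markers were also higher, without overlap, in depleted bone, skin and muscle at day 7, where Hgf did not pass. In muscle they stood at 36.8 to 80.9 CPM against 4.71 to 9.82. Summed neutrophil markers were higher without overlap too, at 16710 to 30910 CPM against 4503 to 8150 in bone at day 10. In skin at day 4 they stood at 546 to 739 CPM against 257 to 443. They were also higher, without overlap, in depleted muscle and heart at day 7, where Hgf did not pass. In bone and skin at day 7 they overlapped. The part of mast cells, basophils and neutrophils in the Hgf counts was not tested. Hgf counts lay over 0.01 from a whole number in 17 of the 44 bone, muscle and skin libraries, and 2 unclassified transcripts overlap the gene, so its level is less certain than that of the other members.

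Some genes that activate or restrain HGF passed in skin, muscle and bone. At day 4 in skin, 2 of 5 tested genes of the list rose: Spint1, an inhibitor of the HGF activator protease (log2 change 1.46, adjusted p = 0.0135), and Plaur, the urokinase receptor (0.68, adjusted p = 0.0235). Of all genes tested, 3.57% passed there in either direction. Plaur rose in muscle at day 7 (0.62, adjusted p = 0.0149) and fell in bone at days 7 and 10 (-0.50 and -0.62, adjusted p = 0.0166 and 0.0307). Plau, urokinase, fell in bone at day 7 (-1.14, adjusted p = 0.0202), and Spint2, a second inhibitor, rose there (0.87, adjusted p = 0.00635). The share of all genes that passed was 23.6% in bone at day 7, 17.2% in bone at day 10 and 8.59% in muscle at day 7.

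Gdf15 (chr8:70629393-70632456, minus strand) fell furthest of the 8 members, in bone. At day 7 control libraries held 25.6, 14.9, 28.2, 13.6 and 26.1 CPM and depleted libraries 4.17, 1.43, 3.83, 2.65 and 3.65. The arms did not overlap, and the fall was 6.97-fold (log2 change -2.80 ± 0.36 SE, adjusted p = 1.26e-05). At day 10 Gdf15 was at 17.7, 30.2 and 59.1 CPM in control and 6.14, 2.70 and 7.58 in depleted libraries (6.35-fold lower, log2 change -2.67 ± 0.46 SE, adjusted p = 0.000694). With Rn18s-rs5 as a covariate both bone changes were larger, at -3.21 and -3.27 (adjusted p = 0.000191 and 0.02).

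Gdf15 fell in muscle and skin as well. Muscle libraries of day 7 stood at 162, 270 and 253 CPM in control and 102, 62.2 and 55.3 in depleted libraries, with no overlap (3.11-fold lower, log2 change -1.64 ± 0.24 SE, adjusted p = 0.000443). Skin libraries of day 7 were at 93.7, 68.1, 144 and 148 CPM in control and 27.4, 27.6, 31.5 and 59.97 in depleted libraries (3.03-fold lower, log2 change -1.60 ± 0.34 SE, adjusted p = 0.009). Those of day 4 were at 52.9, 59.8, 51.3 and 89.3 CPM against 14.7, 15.0, 29.6 and 38.8 (2.54-fold lower, log2 change -1.35 ± 0.35 SE, adjusted p = 0.0444). That call was lost without any library except depleted library 4 (adjusted p 0.069 to 0.134). In heart Gdf15 did not pass at either day (log2 change 0.37 and -0.38, adjusted p = 0.357 and 0.393). Leaving out depleted library F3 at day 4, at 100 CPM beside 193 and 205, gave a rise of 0.64 (adjusted p = 0.012).

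Gdf3 (chr6:122605403-122610087, minus strand) fell in bone at day 7. Control libraries held 18.2, 7.96, 14.2, 4.99 and 8.70 CPM and depleted libraries 2.08, 1.43, 2.42, 1.87 and 2.53. All depleted libraries were below all controls, by 5.32-fold (log2 change -2.41 ± 0.38 SE, adjusted p = 9.5e-05). The bone effect was below that of muscle (bone minus muscle -1.80 ± 0.49, adjusted p = 0.0147) and below that of skin (bone minus skin -1.85 ± 0.49, adjusted p = 0.00991). Without depleted muscle library 1 or depleted skin library 4 the respective adjusted p rose to 0.0507 and 0.0509. Muscle Gdf3 at day 7 was at 13.4 to 17.0 CPM in control and 8.96 to 11.8 in depleted libraries, which did not overlap (log2 change -0.61, adjusted p = 0.112). In heart it ranged from 33.4 to 80.4 CPM over all libraries and did not pass at either day (adjusted p = 0.685 and 0.603). The skin estimates were -1.02 and -0.55 (adjusted p = 0.0911 and 0.444), and the first was -1.26 without depleted library 2 (adjusted p = 0.0486).

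Of 10 tested PPAR gamma and lipid response genes, 9 fell in bone at day 7 (list median -1.27) and 4 at day 10 (-0.88). Of all genes tested, 23.6% and 17.2% passed there in either direction. Examples at day 7 were Fabp5, a fatty acid binding protein (log2 change -1.44, adjusted p = 0.000185), and the cholesterol exporters Abca1 (-1.82, adjusted p = 0.000521) and Abcg1 (-1.02, adjusted p = 0.000364). Plin2, a lipid droplet coat protein, fell at day 10 (-1.53, adjusted p = 0.000225). At day 7 in skin, 3 of these 10 genes rose and none fell, against 6.21% of all genes. Of 8 tested integrated stress response genes, 3 fell in bone at day 7 (list median -0.42), against the same 23.6% of all genes. They included the transcription factor Atf3 (-1.47, adjusted p = 8.83e-06) and the phosphatase subunit gene Ppp1r15a (-1.20, adjusted p = 9.5e-05). Asns, asparagine synthetase, instead rose in muscle at day 7 (1.52, adjusted p = 0.00844), and Ddit4, an inhibitor of mTORC1, fell in heart at day 4 (-1.85, adjusted p = 0.00871). Of 9 tested receptor and SMAD genes, 2 fell in bone at day 7, a share near that of all genes, Tgfbr1 (-1.19, adjusted p = 1.98e-05) and Tgfbr2 (-1.22, adjusted p = 3.34e-05). Smad3, a signal transducer, fell in bone at day 10 (-2.12, adjusted p = 0.0134), and Acvr2b, an activin receptor gene, in heart at day 7 (-1.20, adjusted p = 0.0306).

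Of 13 tested other repair factors of macrophages, 7 fell and 1 rose in bone at day 7, with a list median of -0.91, against 23.6% of all genes that passed. Among those that fell were Spp1, osteopontin (log2 change -2.83, adjusted p = 9.35e-05), and Grn, progranulin (-0.85, adjusted p = 0.000315). Muscle at day 7 had 3 of 14 that rose and 2 that fell, with a list median of 0.05, against 8.59% of all genes. The rises included Inhba, the activin A subunit gene (3.53, adjusted p = 3.56e-06), and Il1rn, the interleukin 1 receptor antagonist gene (1.44, adjusted p = 0.000175). Il1rn fell in bone at day 7 (-1.98, adjusted p = 0.000425). Spp1 also fell in skin at day 7 (-1.41, adjusted p = 0.00476), where 4 of 12 fell and none rose, against 6.21% of all genes.

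Other marker lists moved in the same bone comparison. At day 7, 7 of 7 tested mast cell and basophil genes, 5 of 10 neutrophil genes and 5 of 6 T and NK cell genes rose. Of 10 macrophage and monocyte genes, 6 fell and 1 rose. Of all genes tested, 23.6% passed there in either direction. Immediate early genes, which also respond to tissue dissociation, fell for 14 of 16, including Dusp1 (log2 change -2.11, adjusted p = 4.75e-07) and Egr1 (-1.84, adjusted p = 2.83e-06). At day 4 in muscle, Hspa1a of the same list fell (-2.51, adjusted p = 1.73e-07). Skin at day 7 had 11 of 16 immediate early genes and 2 of 3 keratinocyte genes that fell, against 6.21% of all genes. At day 7 in muscle, 5 of 9 neutrophil genes rose beside Hbegf, against 8.59% of all genes. The part of these cells and of handling in the members' changes was not tested.

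**Figure D3:**
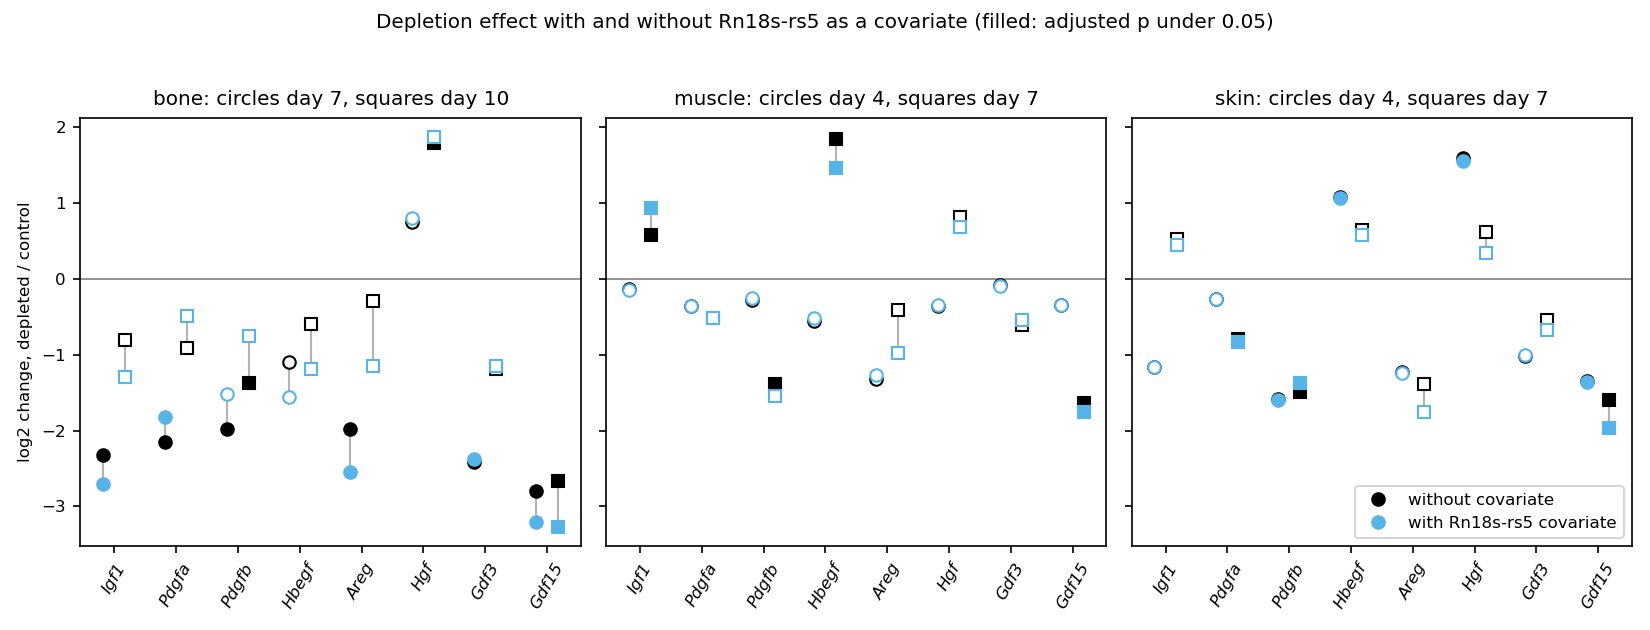
Log2 change of depleted against control without (black) and with (blue) the log2 level of Rn18s-rs5 as a covariate, for bone, muscle and skin; circles are the earlier and squares the later day, and filled symbols passed an adjusted p of 0.05. Gdf15 in bone runs from -2.67 to -3.27 over both fits and days, while Pdgfb and Hgf in bone at day 10 are filled in the fit without the covariate and open with it.

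With Rn18s-rs5 in the bone fit, 6 of the 9 depletion calls in bone remained. The 3 lost were Pdgfb at both days and Hgf at day 10. In muscle and skin, where the covariate was added after seeing the data, 10 of the 11 depletion calls remained, and Pdgfb in muscle at day 7 was lost. Over all genes the covariate lowered the calls from 2994 to 1166 in bone at day 7, from 2182 to 78 at day 10 and from 1109 to 419 in muscle at day 7. In skin, all-gene calls moved less, from 450 to 503 at day 4 and from 784 to 708 at day 7. In muscle at day 4 they went from 20 to 27. A lost call in bone at day 10 or muscle at day 7 decides nothing on Rn18s-rs5, since its levels separate the arms there.

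Between days, 5 members rose in heart in both arms. From day 4 to day 7 the same 5 members rose in control heart (against 31.8% of all genes tested that passed) and in depleted heart (against 27.3%): Igf1, Pdgfa, Pdgfb, Hgf and Gdf15. Gdf15 rose from 134, 120 and 127 CPM to 481, 679 and 662 in control libraries, 4.78-fold (log2 change 2.26 ± 0.24 SE, adjusted p = 1.84e-05). In depleted libraries it rose from 193, 205 and 100 to 461, 534 and 404, 2.83-fold (adjusted p = 0.000705). Igf1 rose in control heart from 426, 336 and 285 CPM to 1229, 1145 and 1386 (3.59-fold, log2 change 1.84 ± 0.31 SE, adjusted p = 0.00138). In depleted heart it rose from 408, 393 and 218 to 1107, 946 and 519 (2.53-fold, adjusted p = 0.00966). Days did not overlap in any of these groups.

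Pdgfb in control heart rose from 6.12, 5.07 and 1.90 CPM to 24.9, 22.5 and 15.3 (4.68-fold, adjusted p = 1.73e-05), and in depleted heart from 5.20, 3.44 and 4.197 to 12.5, 12.2 and 16.5 (3.10-fold, adjusted p = 0.00089). Hgf rose 2.48-fold and 1.78-fold in the control and depleted arms (adjusted p = 0.00048 and 0.0132), the second lost without depleted day 4 library F1 (0.0798). Pdgfa rose 1.54-fold and 1.92-fold (adjusted p = 0.00699 and 6e-04). No member's depletion effect in heart differed between days by the test, against 4.09% of all genes. At unadjusted p below 0.05 Gdf15 alone was in that set, with a difference of -0.76 ± 0.32 (adjusted p = 0.26), and DESeq2 called 0 members. Without depleted day 4 library F3 it was -1.03 (adjusted p = 0.00443). A missed threshold does not show that the arms changed alike. Hbegf, Areg and Gdf3 did not pass between days in either arm of heart. The Areg change of -0.70 in control (adjusted p = 0.0558) passed without day 7 library WT3 (-1.20, adjusted p = 0.00148) and without the low-count filter (adjusted p = 0.02), and the Gdf3 change of -0.50 in depleted (adjusted p = 0.155) passed without the filter (adjusted p = 0.0131).

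In muscle, 2 members rose and 1 fell in the control arm (against 7.24%), and 2 rose and 2 fell in the depleted arm (against 19.4%). Hbegf rose in both: in control from 5.38, 6.98 and 6.29 to 9.06, 12.1 and 14.3 CPM (1.89-fold, adjusted p = 0.0367) and in depleted from 4.39, 3.75 and 4.56 to 31.2, 52.5 and 42.9 (9.91-fold, log2 change 3.31 ± 0.26 SE, adjusted p = 1.2e-07). The control rise was lost without any single library except control day 7 library 1 (adjusted p 0.0687 to 0.136). Gdf15 rose in control muscle 2.12-fold (adjusted p = 0.0101; 0.0558 without day 4 library 2) and changed by -0.20 in depleted muscle (adjusted p = 0.64). Hgf fell 2.08-fold in control muscle (adjusted p = 0.0182), a call lost without day 4 library 2 or day 7 library 1 or 3 (0.0872, 0.0898 and 0.051). In depleted muscle Areg rose 3.15-fold (adjusted p = 0.00624), Gdf3 fell 1.99-fold (0.00345) and Pdgfa fell 1.66-fold (0.0389), and none of these 3 passed with Rn18s-rs5 as a covariate (0.394, 0.168 and 0.335). The fall of Pdgfa was lost too without day 4 library 1 or 3 or day 7 library 2 or 3 (0.18, 0.0604, 0.0756 and 0.159). The depletion effect differed between days for 1 of 8 members, Hbegf, against 2.41% of all genes tested. For Gdf15 that difference was -1.29 ± 0.34 (adjusted p = 0.0588), and DESeq2 called it, as did the test without depleted day 4 library 1, depleted day 7 library 1 or control day 7 library 1 (0.0477, 0.00675 and 0.0285). The Igf1 difference of 0.71 (adjusted p = 0.121) passed without depleted day 7 library 2 (0.0269), and the Pdgfb change of -0.78 in depleted muscle (adjusted p = 0.0945) without day 4 library 3 (0.0367).

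**Figure D4:**
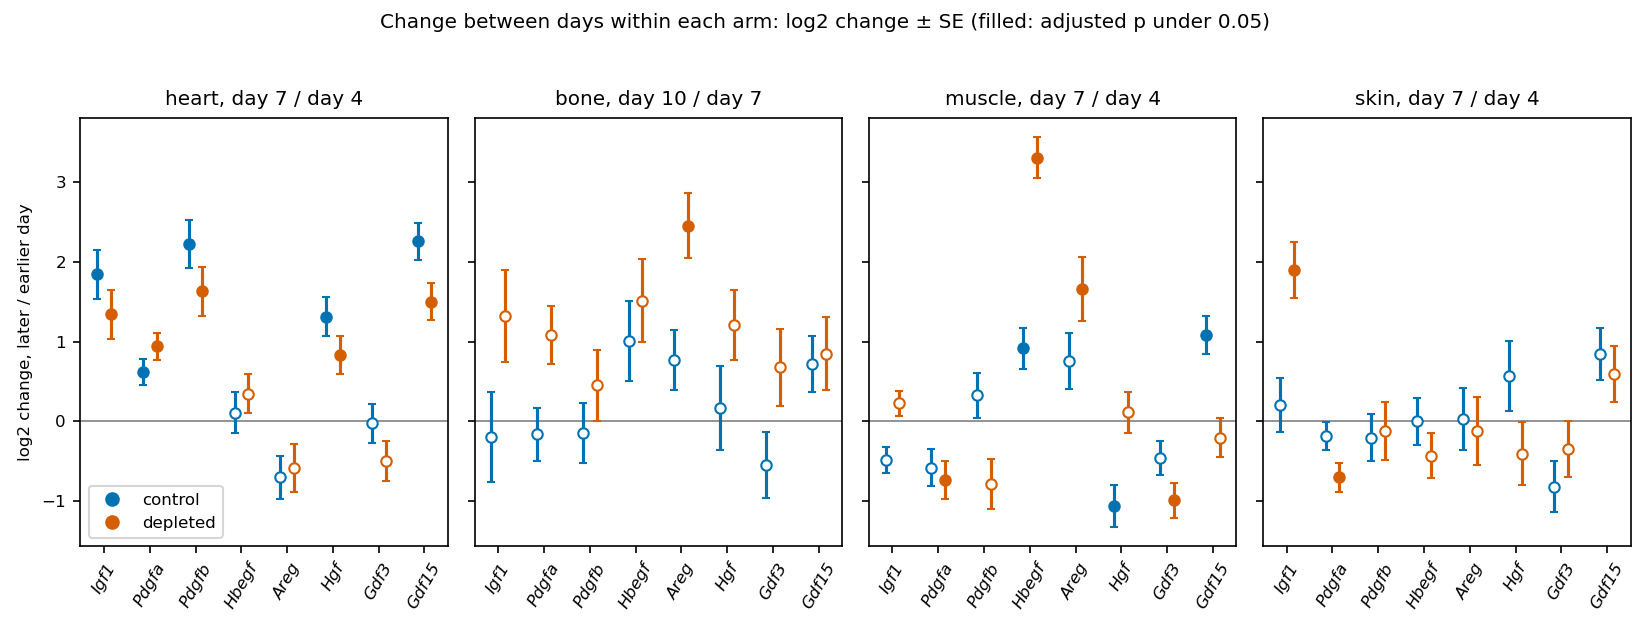
Log2 change of the later against the earlier day in control (blue) and depleted (orange) libraries of each tissue, with bars of 1 standard error; filled points passed an adjusted p of 0.05. In heart 5 genes are filled in both arms, and in muscle Hbegf of the depleted arm is the highest point at 3.31.

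In bone, none of 8 members passed between days 7 and 10 in the control arm (against 0.0393% of all genes; 0 at unadjusted p below 0.05 and 0 by DESeq2), and 1 rose in the depleted arm (against 12.2%). That member was Areg, which went from 0.624 to 4.37 CPM at day 7 to 13.3, 9.80 and 14.2 at day 10 (5.49-fold, log2 change 2.46 ± 0.41 SE, adjusted p = 0.000854). Estimates in the depleted arm were above 0 for all 8. Without depleted day 7 library 3, Igf1, Pdgfa and Hbegf passed there too (adjusted p = 0.0142, 0.0335 and 0.0118), and Pdgfa also without library 1 (0.0425). The depletion effect in bone differed between days for no member and for 0% of all genes tested by edgeR, with 1591 genes at unadjusted p below 0.05 and 223 called by DESeq2. Pdgfa and Areg were the members at unadjusted p below 0.05 there, and DESeq2 called 0 members. In control skin none of 8 passed (against 2.27%; Gdf3 and Gdf15 at unadjusted p below 0.05, 0 by DESeq2). In depleted skin 1 rose and 1 fell (against 2.62%), Igf1 upward as given above and Pdgfa down 1.63-fold (adjusted p = 0.0322). The fall of Pdgfa was lost without any of 5 libraries, depleted 2, 3 or 4 of day 4 and 1 or 3 of day 7 (adjusted p 0.05 to 0.107). For the difference of the depletion effect between days in skin no member passed, against 0.848% of all genes tested (Igf1 and Pdgfa at unadjusted p below 0.05, 0 by DESeq2). With the replicate block Igf1 passed there (1.64, adjusted p = 0.0193). Each depletion comparison shares its libraries with the day comparisons of that tissue.

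Among control libraries, Areg was higher in skin than in bone or muscle, and Gdf15 was lower in bone than in muscle or skin. These comparisons share control groups. Bone against muscle at day 7 had 2 of 8 members lower and none higher, against 13.6% of all genes tested that passed. Gdf15 was at 13.6 to 28.2 CPM in bone (median 25.6) and 162 to 270 in muscle, 10.6-fold lower in bone (log2 change -3.41 ± 0.34 SE, adjusted p = 2.4e-09). Igf1 was 3.55-fold lower in bone (adjusted p = 0.00169). Bone against skin at day 7 had 5 lower and none higher, against 25.6%: Areg 5.36-fold (adjusted p = 1.28e-06), Gdf15 5.26-fold (6.15e-07), Hbegf 2.39-fold (0.00812), Hgf 2.26-fold (0.031) and Pdgfa 1.56-fold (0.036). The Hgf call was lost without any library except bone 4 and skin 1 (adjusted p up to 0.0916), and the Pdgfa call without any except bone 1 and 2 and skin 1 (up to 0.145).

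Muscle against skin had 1 higher and 2 lower members at day 7, against 11.9%, and 1 higher and 2 lower at day 4, against 12.3%. Areg at day 7 was at 13.6, 10.3 and 8.62 CPM in control muscle and 58.0, 67.8, 42.7 and 23.7 in control skin, 4.40-fold lower in muscle (adjusted p = 0.000323). At day 4 it was 7.30-fold lower in muscle (adjusted p = 4.77e-06). Pdgfa was 1.98-fold lower in muscle at day 7 (adjusted p = 0.0119; 0.0869 and 0.0652 without muscle library 1 or 3) and Gdf15 2.02-fold higher (adjusted p = 0.0435). The Gdf15 call was lost without muscle library 2 or 3 or skin library 1 or 2 (0.163, 0.138, 0.109 and 0.15). At day 4 Igf1 was 3.45-fold higher and Hbegf 3.35-fold lower in muscle (adjusted p = 0.00471 and 0.00434). Igf1 and Gdf3 did not pass at day 7 (adjusted p = 0.0962 and 0.068) but did without skin library 4 and skin library 3, respectively (0.034 and 0.023). Keratinocyte markers summed to 21.2 to 48.7 CPM in control skin at day 7 and 5.33 to 6.59 in control muscle. At day 4 they summed to 6.04 to 19.0 CPM in control skin and 2.91 to 4.09 in control muscle. Areg in control skin changed by 0.03 between those days (log2, adjusted p = 0.991). The part of keratinocytes in the Areg counts was not tested.

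The depletion effect itself was lower in bone than in muscle at day 7 for 4 of 8 members, against 8.28% of all genes tested, and lower in bone than in skin for the same 4, against 9.37%. These were Igf1, Pdgfa, Gdf3 and Hbegf. For Hbegf the difference was -2.93 ± 0.57 from muscle and -1.73 ± 0.52 from skin (adjusted p = 0.000571 and 0.0281). The second was lost without any of 6 libraries: bone depleted 2, 4 or 5, bone control 1, skin depleted 1 or skin control 4 (adjusted p 0.0513 to 0.101). For the difference of the depletion effect between muscle and skin, no member passed at day 7 (against 2.78%) or at day 4 (against 0.265%). At unadjusted p below 0.05 were Hbegf at day 7, and Pdgfb, Hbegf and Hgf at day 4, and DESeq2 called 0 members at either day. Without the low-count filter Hbegf passed at day 7 (1.24, adjusted p = 0.0383). Igf1, Hbegf and Hgf then passed at day 4 (0.955, -1.70 and -2.01, adjusted p = 0.0197, 0.00661 and 0.00542).

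Ordered by group mean, most members were highest in heart or skin and lowest in depleted bone. Heart was deposited and scaled in a separate table, so its place beside the other tissues is not a test. Control heart at day 7 held the highest mean of Igf1 (1253 ± 122 CPM, SD, n = 3), Gdf15 (608 ± 110), Pdgfa (53.9 ± 5.71) and Pdgfb (20.9 ± 5.02). Depleted heart at day 4 was highest for Gdf3 (63.1 ± 15.0 CPM, n = 3), control skin at day 7 for Areg (48.0 ± 19.2, n = 4), and depleted skin at day 4 for Hbegf and Hgf (44.6 ± 17.3 and 17.7 ± 11.4, n = 4). Depleted bone at day 7 (n = 5) was lowest for every member tested except Hgf, at 21.1 ± 18.9 CPM for Igf1, 6.27 ± 2.70 for Pdgfa, 2.50 ± 1.18 for Pdgfb and 4.04 ± 3.46 for Hbegf. There Areg was at 2.28 ± 1.62, Gdf3 at 2.06 ± 0.441 and Gdf15 at 3.14 ± 1.11. Hgf was lowest in control bone at day 7 (3.83 ± 3.60 CPM). Of the 15 neighbouring pairs in each gene's order of means, 0 to 2 had libraries that did not overlap.

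Over the 12 groups of bone, muscle and skin, group mean log2 levels of the members were correlated for few pairs. Of 28 pairs of members, 3 had a Pearson r above 0.8, all among Igf1, Gdf3 and Gdf15, and the lowest was -0.63, between Pdgfb and Hgf. Among 9715 other genes, those most like each member were Pgrmc1 and Blnk for Igf1 (r = 0.98 and 0.97), Clec4d and Gcsh for Pdgfa (0.97 and 0.95), and Cd276 and Hpgd for Pdgfb (0.94 and 0.93). For Hbegf they were Gm20186 and Irs2 (0.93 and 0.92), and for Areg Crem and Phlda1 (0.96 and 0.95). Tgm1 and Sanbr were nearest to Hgf (0.92 and 0.91), Ftl2-ps and Ctsb to Gdf3 (0.98 and 0.98), and Wdr91 and Slc48a1 to Gdf15 (0.97 and 0.96). All these correlations share the same libraries and tissues and are given as a description.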

How the data were processed

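Per the submitters' processing notes, the tools for heart were STAR, featureCounts, Salmon and limma and the build GRCm38, and the deposited values are whole-number counts per gene. For bone, muscle and skin the notes name STAR, featureCounts and limma with both GRCm38 and GRCm39, and the deposited values are estimated counts, 19.4% of the non-zero ones over 0.01 from a whole number, which were rounded to whole numbers here. For tool versions, annotation, strand setting and collapsing of molecular identifiers, nothing is stated in the sources used here. Uncollapsed duplicates would make counts look more precise than they are. Heart columns without a day were taken as day 7, since the day 4 columns name theirs.

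Genes were filtered with filterByExpr, scaled by TMM and tested with edgeR 4.0.16 (limma 3.58.1, R 4.3.3; glmQLFit robust, glmQLFTest). One fit per tissue gave the depletion and day comparisons, and one fit of the 12 bone, muscle and skin groups the tissue comparisons. P-values were adjusted by Benjamini-Hochberg over all genes tested, with a threshold of 0.05. CPM use TMM-scaled library sizes. Alternatives were RLE scaling, no filter, DESeq2 1.42.0, a replicate block, the compared groups alone, each library left out, and Rn18s-rs5 as a covariate (for muscle and skin added after seeing the data). Scripts were tested on simulated data. All members are named. Of each pathway list, the 4 genes with the smallest adjusted p in any depletion comparison are named with that value, and further comparisons of such genes were chosen after their values were seen. Members and lists were chosen with earlier results of these data known. Promoter windows come from RefSeq tables.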

Additional observations from a re-analysis of the deposited data

Results flagged for a closer look

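In 48 checks of a member in a group of 4 or 5 libraries, 4 found a library far from the rest (chance gives about 1 in 20). These checks share libraries. Igf1 in skin at day 7 was highest in library 4 of both arms, at 296 CPM in control beside 122 to 151 and at 476 CPM in depleted beside 167 to 190, with gaps of 0.832 and 0.926 of the group range. Gdf15 was highest in the same depleted library, at 59.97 CPM beside 27.4 to 31.5 (0.874). Gdf3 in depleted skin at day 4 was highest in library 2, at 10.9 CPM beside 5.57 to 6.09 (0.902).

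The depletion effect differed between groups in 9 tests of the difference itself. For Hbegf in muscle, the effect at day 7 minus that at day 4 was 2.39 (log2). The effect in bone minus that in muscle at day 7 was -2.90 for Igf1, -1.63 for Pdgfa, -2.93 for Hbegf and -1.80 for Gdf3. The effect in bone minus that in skin at day 7 was -2.82 for Igf1, -1.33 for Pdgfa, -1.73 for Hbegf and -1.85 for Gdf3.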

How the results depend on the processing

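Of 64 called values in all comparisons, 43 kept their call with each library left out, 50 under every other alternative and 38 under all, and none reversed. Of 160 values not called, 35 passed under at least 1 alternative. The 22 depletion calls were 19 to 25 under the other settings and 19 to 23 with a library left out, the 20 day calls 17 to 26 and 17 to 23, and the 13 tissue calls 13 to 17 and 10 to 13. The 1 value whose depletion effect differed between days became 4 values (3 members) without the filter, 2 by DESeq2, 0 with Rn18s-rs5 as a covariate in muscle and skin, and 1 to 2 with a library left out. The 8 values (4 members) whose effect differed between tissues became 15 values without the filter and 7 to 8 with a library left out.

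The labels do not say whether equal replicate numbers mark paired libraries, and the correlations do not settle it. Over 22 pairs the correlation of deviations ran from -0.15 to 0.23, 7 were over 0.1 and 11 were the best match of their library. With the replicate block there were 22 depletion calls, 20 of them shared, and 2 values whose effect differed between days. In skin at day 4 the block ended the calls of Hbegf and Hgf (adjusted p = 0.0507 and 0.066). Heart columns carry no label number, so no block could be fitted there.

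Counts over all genes moved by over 1.5 times in several comparisons. Depletion calls in heart at day 7 went from 356 to 754 without the filter and 615 by DESeq2, in muscle at day 4 from 20 to 190 and 87, and in skin at day 4 from 450 to 719 without the filter. Rn18s-rs5 as a covariate took bone from 2994 to 1166 (day 7) and 2182 to 78 (day 10), muscle at day 7 from 1109 to 419, and the day calls of depleted muscle from 2502 to 890. Day calls went from 5 to 176 without the filter and 54 by DESeq2 in control bone, from 286 to 514 and 454 in control skin, and from 330 to 632 without the filter in depleted skin. Differences of the depletion effect between days went from 0 to 166 and 223 in bone, 311 to 583 and 497 in muscle (69 with the covariate) and 107 to 319 and 273 in skin. Those between muscle and skin went from 38 to 224 and 89 at day 4, and from 398 to 629 without the filter at day 7. Leaving out a library lowered the depletion calls to as few as 686 from 1259 and 124 from 356 in heart (days 4 and 7), 1181 from 2182 in bone at day 10, 2 from 20 in muscle at day 4, and 265 from 450 and 514 from 784 in skin. It lowered day calls to as few as 557 from 1547 in depleted bone, 527 from 935 in control muscle, 112 from 286 in control skin and 205 from 330 in depleted skin. Muscle against skin in control fell to 1089 from 1711 at day 7 and 988 from 1761 at day 4. Day calls in control bone (5) were 0 to 12. Differences of the depletion effect between days were at most 27 in bone, at least 154 in muscle and 68 to 162 in skin, and those between muscle and skin 11 to 64 at day 4 and at least 251 at day 7. The cause was not tested, and the all-gene shares beside the members' counts move with these totals.

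Groups of 3 to 5 libraries limit precision, and the counts of Tgfa were too few for a test. Genotype, Treg loss and the cells sorted cannot be told apart.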
